A study of Homo sapiens with 6 samples.

Results

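The subject is 37 genes: 34 aminoacyl-tRNA synthetase genes and the 3 scaffold genes of the multisynthetase complex. They were taken by symbol from the gene name reference (older names without the final 1 count as the same gene), and all 37 were found among the 60612 gene identifiers counted. Of these, 21 make cytosolic proteins (18 enzyme genes and the 3 scaffolds AIMP1, AIMP2 and EEF1E1) and 16 make mitochondrial enzymes. The list does not hold the enzymes of every amino acid. GARS1 and KARS1 serve both compartments from 1 gene each and were counted as cytosolic.

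RNA was sequenced from SKBR3, a HER2-positive mammary epithelial cancer line, in 2 groups of 3 libraries. The parental group was SKBR3 with no treatment. The trastuzumab group was SKBR3 kept for 30 weeks under increasing doses of trastuzumab, an antibody against HER2, to obtain resistant cells. Whether the antibody was still present at harvest is not stated, both groups come from this single line, and nothing in the labels says that replicates were separate cultures. P-values therefore measure only the spread between these libraries, which may be technical.

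Aminoacyl-tRNA synthetases join each amino acid to its tRNA, the step that matches amino acids to codons in translation. Cytosolic and mitochondrial translation use separate enzymes for most amino acids, and all of them are encoded in the nucleus. Several cytosolic enzymes sit together in the multisynthetase complex, held by AIMP1, AIMP2 and EEF1E1 (AIMP3). Many cytosolic synthetase genes are known targets of ATF4, the transcription factor that the kinase GCN2 brings up when uncharged tRNA accumulates.

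Depth was 71.0 to 82.9 M counts per library, and the members had between 591 and 29615 counts in every library, so counting error was small for all of them. Luminal markers (KRT8, KRT18, KRT19, EPCAM, GATA3, FOXA1) summed to 10514 to 11931 counts per M (CPM) in parental and 10140 to 11238 CPM in trastuzumab libraries. Of these 6 genes, 1 was higher, 2 were lower and 3 did not pass the test described below. The basal list of 4 genes summed to 1.89 to 3.14 CPM in parental libraries and 2.01 to 19.4 CPM in trastuzumab libraries, since trastuzumab replicates 2 and 3 held KRT5 (9.07 and 8.26 CPM) and KRT14 (7.53 and 7.72 CPM). The immune list of 5 genes went from 14.4 to 17.2 CPM up to 42.7 to 49.0 CPM, nearly all CD68, with PTPRC at 0.31 CPM or less. The endothelial list of 3 went from 28.5 to 31.7 CPM up to 78.9 to 85.9 CPM, nearly all CDH5, with PECAM1 at 0.224 CPM or less. The fibroblast list of 5 summed to 8.34 to 15.9 and 4.62 to 8.64 CPM. The mitochondrial genome gave 3.63% to 4.16% of parental counts and 2.41% to 2.79% of trastuzumab counts. The part of these differences in the results below was not tested.

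In the trastuzumab group most cytosolic synthetase transcripts were lower, while the mitochondrial enzymes were divided. Of 21 cytosolic members, 13 fell, 4 rose and 4 did not pass the test. Of 16 mitochondrial enzymes, 7 rose, 3 fell and 6 did not pass. The median log2 fold change (trastuzumab minus parental) was -0.27 for cytosolic members, with a range of -0.97 to 0.28, and 0.15 for mitochondrial enzymes, with a range of -0.92 to 0.70. Over all genes tested it was -0.0057, with quartiles of -0.44 and 0.38.

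Those counts have to be read against a transcriptome in which very many genes moved. The edgeR quasi-likelihood test, at a Benjamini-Hochberg adjusted p below 0.05, called 49.3% of all 17854 tested genes, 23.9% higher and 25.4% lower. Among the 9008 genes of at least 10 CPM on average, a level that 36 of the 37 members reach, it called 72.8%. It called 73.0% of the members, so the share of members called was that of genes at their level. The direction of the cytosolic members differed: 61.9% fell, where 36.99% of genes of at least 10 CPM did, and 19.0% rose, where 35.8% did. Among mitochondrial enzymes 43.8% rose, near the 35.8% of genes at that level, and 18.8% fell, below the 36.99%. The CPM of the groups did not overlap for 32 of the 37 members (86.5%), against 57.5% of all tested genes and 77.6% of those of at least 10 CPM. All 21 cytosolic members and 11 mitochondrial enzymes were without overlap. The sequenced RNA came from whole cultures, so fewer cells making a transcript and less RNA per cell cannot be told apart.

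**Figure D1:**
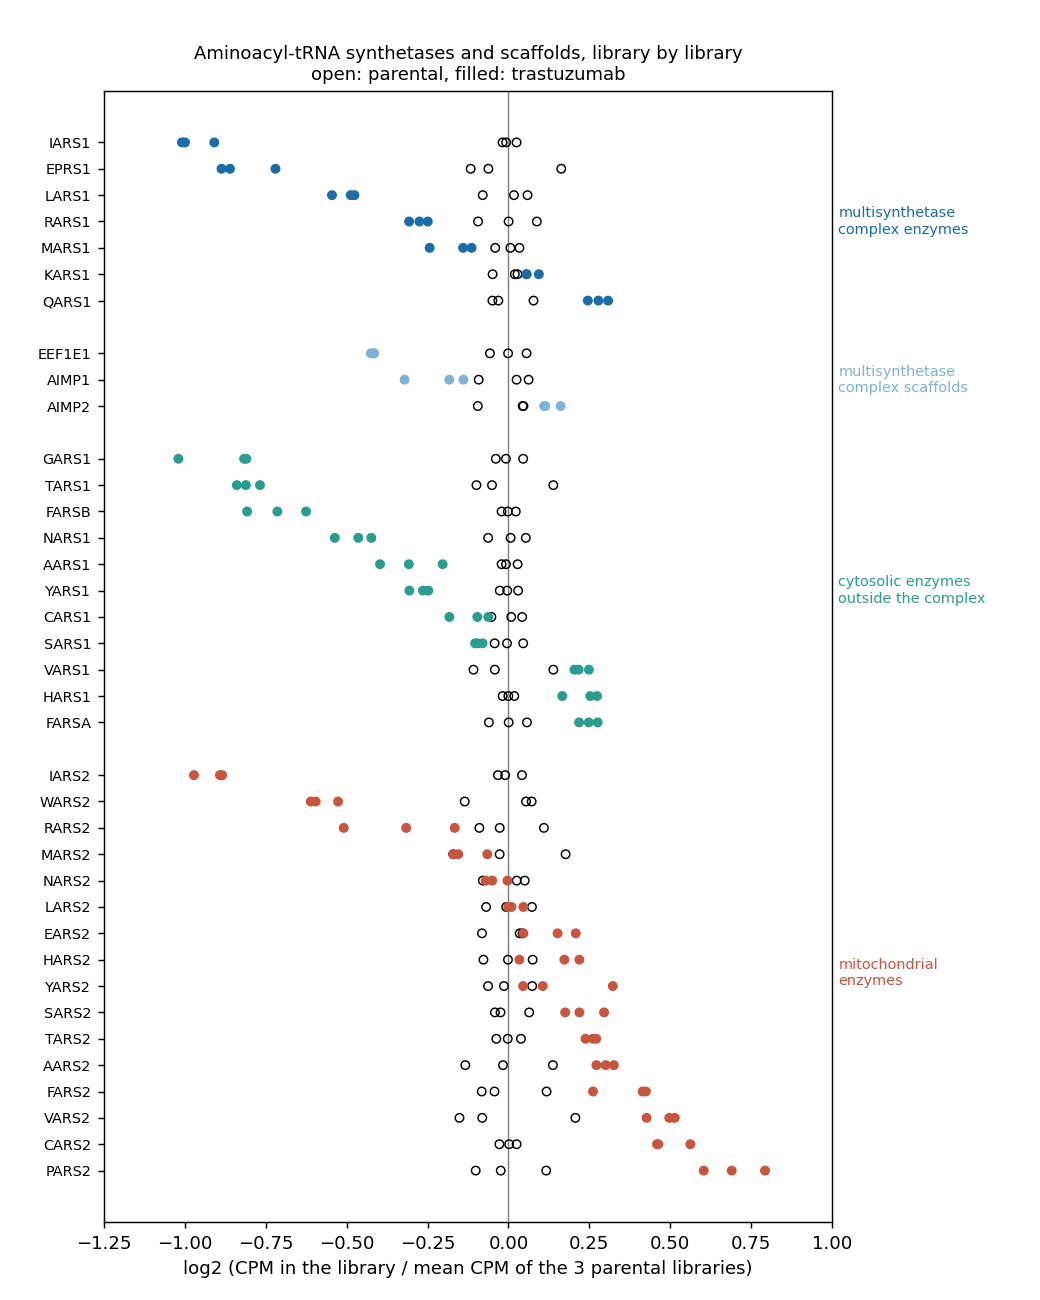
Each row is a gene, and each point is a library, placed by the log2 ratio of its CPM to the mean CPM of the 3 parental libraries (open points parental, filled points trastuzumab). IARS1, EPRS1, GARS1, TARS1 and IARS2 lie far to the left of their parental points, PARS2, CARS2 and VARS2 to the right, and the points of HARS2, LARS2, MARS2, NARS2 and YARS2 overlap between groups.

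Fold changes in these libraries went with the GC content of the transcripts. Protein-coding genes of at least 10 CPM had a median log2 fold change of -0.50 at the lowest GC content (32.0% to 42.4%) and 0.36 at the highest (58.7% to 74.7%), in 5 classes of 1739 genes. The members carried the same relation, with a median GC content of 47.4% for cytosolic members and 51.8% for mitochondrial enzymes. All 9 cytosolic members below 45% GC fell and all 3 above 55% rose. Of the mitochondrial enzymes, 3 of 4 below 45% fell and all 4 above 55% rose. Each member was therefore read a second time, from a fit whose offsets remove a smooth trend on GC content and exonic length from every library, called the offset fit here. It called 37.9% of 17649 genes, 18.9% higher and 19.0% lower, and the 5 GC classes then had medians between -0.025 and 0.024. An offset fit also takes out any difference of the cells that goes with GC content, so the 2 sources cannot be told apart.

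In the offset fit 11 cytosolic members (52.4%) were lower and 3 higher, with a median of -0.17, and 4 mitochondrial enzymes were higher and 3 (18.8%) lower, with a median of 0.015. The share called in this fit among genes of at least 10 CPM was not computed. The 19.0% called lower over all genes is therefore not a like-for-like background for the 52.4%. Called in the same direction by both fits were 10 cytosolic members, 9 lower and 1 higher, and 5 mitochondrial enzymes, 3 higher and 2 lower. The 9 lower in both were IARS1, EPRS1, MARS1, GARS1, TARS1, FARSB, NARS1, AARS1 and YARS1, and HARS1 was higher in both. IARS2 and WARS2 were lower in both, and PARS2, CARS2 and VARS2 higher in both. FARSA and SARS2 rose without offsets and were lower with them, and AIMP1 did the reverse. With upper-quartile scaling in place of TMM, which moved the median of all genes from -0.0057 to 0.047, the split was 6 higher and 11 lower for cytosolic members and 9 higher and 2 lower for mitochondrial enzymes.

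**Figure D2:**
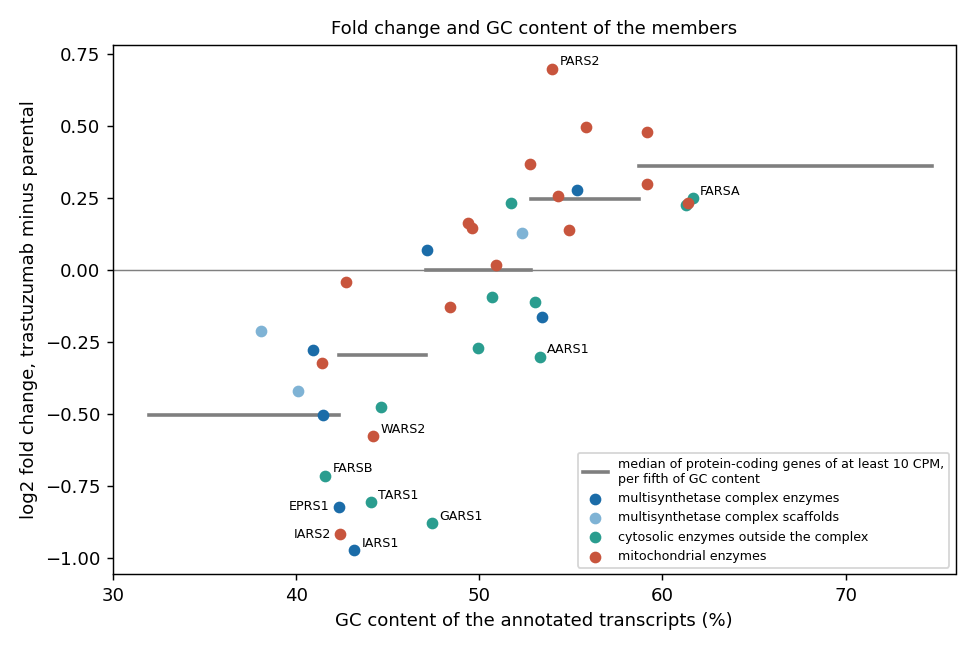
Each point is a member, placed by the GC content of its annotated transcripts (x axis, %) and its log2 fold change (y axis, trastuzumab minus parental), coloured by role, and grey bars give the median of protein-coding genes of at least 10 CPM in 5 classes of GC content. The grey medians climb from -0.50 to 0.36, and IARS1, IARS2, GARS1, EPRS1 and TARS1 lie below the bar of their class, while PARS2 lies above its own.

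Of the 7 enzymes of the multisynthetase complex, 5 fell, QARS1 rose and KARS1 did not pass the test. IARS1, the cytosolic isoleucyl-tRNA synthetase (chr9:92210207-92293756, minus strand, hg38), had 231.8, 224.9 and 226.7 CPM in parental libraries and 121.3, 113.2 and 113.9 CPM in trastuzumab libraries. The groups lay far apart, and its log2 fold change was -0.97 ± 0.046 (SE, adjusted p = 1.22e-10), the lowest of all members, with -0.59 in the offset fit. EPRS1, which carries both the glutamyl and the prolyl enzyme in 1 protein (chr1:219968601-220046658, minus strand), had 204.7, 175.1 and 168.6 CPM in parental and 111.0, 100.7 and 98.9 CPM in trastuzumab libraries. It fell 1.77-fold, with a log2 fold change of -0.82 ± 0.071 (SE, adjusted p = 6.90e-07) and -0.47 with offsets.

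LARS1, the leucyl enzyme that is also known as a leucine sensor of the mTORC1 pathway (chr5:146113038-146182660, minus strand), had 212.6, 206.5 and 193.1 CPM in parental and 145.6, 139.8 and 146.7 CPM in trastuzumab libraries. The groups did not overlap and the log2 fold change was -0.50 ± 0.048 (SE, adjusted p = 2.72e-07), but its transcripts hold 41.4% GC and the offset fit gave -0.027 (adjusted p = 0.587). RARS1, the arginyl enzyme (chr5:168486445-168519299, plus strand), went from 71.4, 63.0 and 67.2 CPM to 56.6, 54.3 and 55.5 CPM, a log2 fold change of -0.28 ± 0.060 (SE, adjusted p = 9.63e-04) that became 0.052 with offsets. QARS1, the glutaminyl enzyme (chr3:49095932-49105135, minus strand), was the one complex enzyme that rose, from 290.0, 286.3 and 312.6 CPM to 359.3, 366.9 and 351.2 CPM. Its log2 fold change was 0.28 ± 0.045 (SE, adjusted p = 7.77e-05) and 0.024 in the offset fit, at 55.3% GC.

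The other 2 complex enzymes moved little. MARS1, the methionyl enzyme, went from a mean of 217.8 ± 5.68 to 194.3 ± 9.12 CPM (SD, n = 3 in each group), a log2 fold change of -0.16 that grew to -0.27 with offsets. MARS1 did not pass with upper-quartile scaling (-0.11, adjusted p = 0.0540). KARS1, the lysyl enzyme of cytosol and mitochondria, had 132.9 ± 3.86 and 139.4 ± 2.13 CPM (SD, n = 3) and passed only with offsets (0.15, adjusted p = 0.00396) or with upper-quartile scaling (0.12, adjusted p = 0.0334). MARS1 shares 519 exonic bases with ARHGAP9 and 355 with DDIT3, both on the other strand, and 63 with MIR6758 on the same strand. Because the strand setting of the counting is unknown, how far these overlaps alter the MARS1 level cannot be told. Other members with opposite-strand exonic overlaps include AIMP2 (532 bases with EIF2AK1), AIMP1 (387 with TBCK), EARS2 (370 with UBFD1) and CARS2 (326 with ING1). Their levels are open to a similar doubt.

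The 3 scaffold genes differed from each other. EEF1E1 (chr6:8073360-8102578, minus strand), which links the methionyl enzyme to the complex, had 41.8, 40.2 and 43.5 CPM in parental and 31.3, 31.1 and 31.4 CPM in trastuzumab libraries. Its log2 fold change was -0.42 ± 0.068 (SE, adjusted p = 6.77e-05), and -0.098 with offsets at 40.1% GC. Of its exonic bases, 393 are shared with the read-through gene EEF1E1-BLOC1S5 on the same strand. AIMP1, which binds tRNA and the arginyl enzyme, had a log2 fold change of -0.21 (adjusted p = 0.0152) that lost its call without parental replicate 1 (adjusted p = 0.0649), parental replicate 2 (0.0542) or trastuzumab replicate 2 (0.0893). AIMP2, the core scaffold, had 0.13 and did not pass (adjusted p = 0.131). With upper-quartile scaling AIMP2 passed (0.18, adjusted p = 0.0336) and AIMP1 did not (-0.16, adjusted p = 0.0621). With offsets AIMP1 was higher (0.22, adjusted p = 0.00326) and AIMP2 had -0.11, so no direction of these 2 genes held in both fits.

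Among the 11 cytosolic enzyme genes outside the complex, 6 fell, 3 rose and 2 did not pass. In the offset fit 8 were lower and 1 higher. GARS1, the glycyl enzyme of both compartments (chr7:30594681-30634033, plus strand), had 227.5, 219.2 and 214.5 CPM in parental and 125.1, 108.7 and 125.7 CPM in trastuzumab libraries. It fell 1.84-fold, with a log2 fold change of -0.88 ± 0.056 (SE, adjusted p = 3.15e-09). Its transcripts hold 47.4% GC, and the offset fit left it at -0.80, the lowest of all members in that fit.

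TARS1, the threonyl enzyme (chr5:33440696-33469539, plus strand), went from 150.2, 131.7 and 127.4 CPM to 80.1, 76.2 and 77.7 CPM. The groups were far apart, with a log2 fold change of -0.81 ± 0.060 (SE, adjusted p = 1.69e-08) and -0.52 with offsets. NARS1, the asparaginyl enzyme (chr18:57600656-57622213, minus strand), had 151.5, 146.6 and 139.7 CPM in parental and 108.8, 100.6 and 105.8 CPM in trastuzumab libraries. Its log2 fold change was -0.47 ± 0.050 (SE, adjusted p = 8.17e-07), with -0.27 in the offset fit.

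AARS1, the alanyl enzyme (chr16:70252295-70289543, minus strand), had 142.4, 147.4 and 143.7 CPM in parental libraries and 125.5, 109.8 and 116.7 CPM in trastuzumab libraries. It fell although its transcripts hold 53.3% GC, where genes tended to rise: the log2 fold change was -0.30 ± 0.053 (SE, adjusted p = 1.51e-04), and -0.50 with offsets. YARS1, the tyrosyl enzyme (chr1:32775237-32818153, minus strand), went from 161.8, 165.6 and 159.2 CPM to 136.6, 135.0 and 131.2 CPM, a log2 fold change of -0.27 ± 0.045 (SE, adjusted p = 8.06e-05), and -0.18 with offsets. YARS1 shares 396 exonic bases with S100PBP on the other strand.

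FARSA and FARSB make the alpha and beta subunits of 1 enzyme, the cytosolic phenylalanyl-tRNA synthetase, and their transcripts went opposite ways. FARSB (chr2:222570536-222656337, minus strand) had 78.9, 77.6 and 76.5 CPM in parental and 50.3, 44.4 and 47.3 CPM in trastuzumab libraries, a log2 fold change of -0.71 ± 0.060 (SE, adjusted p = 5.91e-08). FARSA (chr19:12922479-12934037, minus strand) rose from 84.8, 88.5 and 92.0 CPM to 105.0, 102.9 and 107.1 CPM, a log2 fold change of 0.25 ± 0.050 (SE, adjusted p = 5.39e-04). On the authors' FPKM scale, which is per length, the ratio of FARSB to FARSA was 0.335, 0.316 and 0.299 in parental libraries and 0.172, 0.155 and 0.159 in trastuzumab libraries, so every library of a group lay on its own side. Their transcripts differ in GC content, with 41.6% for FARSB and 61.6% for FARSA. In the offset fit both were lower, with -0.41 for FARSB and -0.17 for FARSA (adjusted p = 0.00535), and the difference between them shrank from -0.96 to -0.25.

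The remaining 4 genes outside the complex had small differences. HARS1, the histidyl enzyme, rose from 136.7 ± 1.70 to 160.5 ± 6.29 CPM (SD, n = 3), with a log2 fold change of 0.23 in both fits. VARS1, the valyl enzyme that binds the elongation factor eEF1, had 0.22 and was called higher, but had -0.066 with offsets at 61.3% GC. SARS1, the seryl enzyme, had -0.092 and CARS1, the cysteinyl enzyme, -0.11. Neither passed (adjusted p = 0.101 and 0.117), and SARS1 was lower in the offset fit (-0.19, adjusted p = 3.72e-04). Both were called lower with library totals alone (SARS1 -0.15, adjusted p = 0.00814, and CARS1 -0.17, 0.0220). On the FPKM scale limma called SARS1 in all 3 settings (adjusted p = 0.00414 to 0.0172) and CARS1 in the 2 with a filter (0.0313 and 0.0315).

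**Figure D3:**
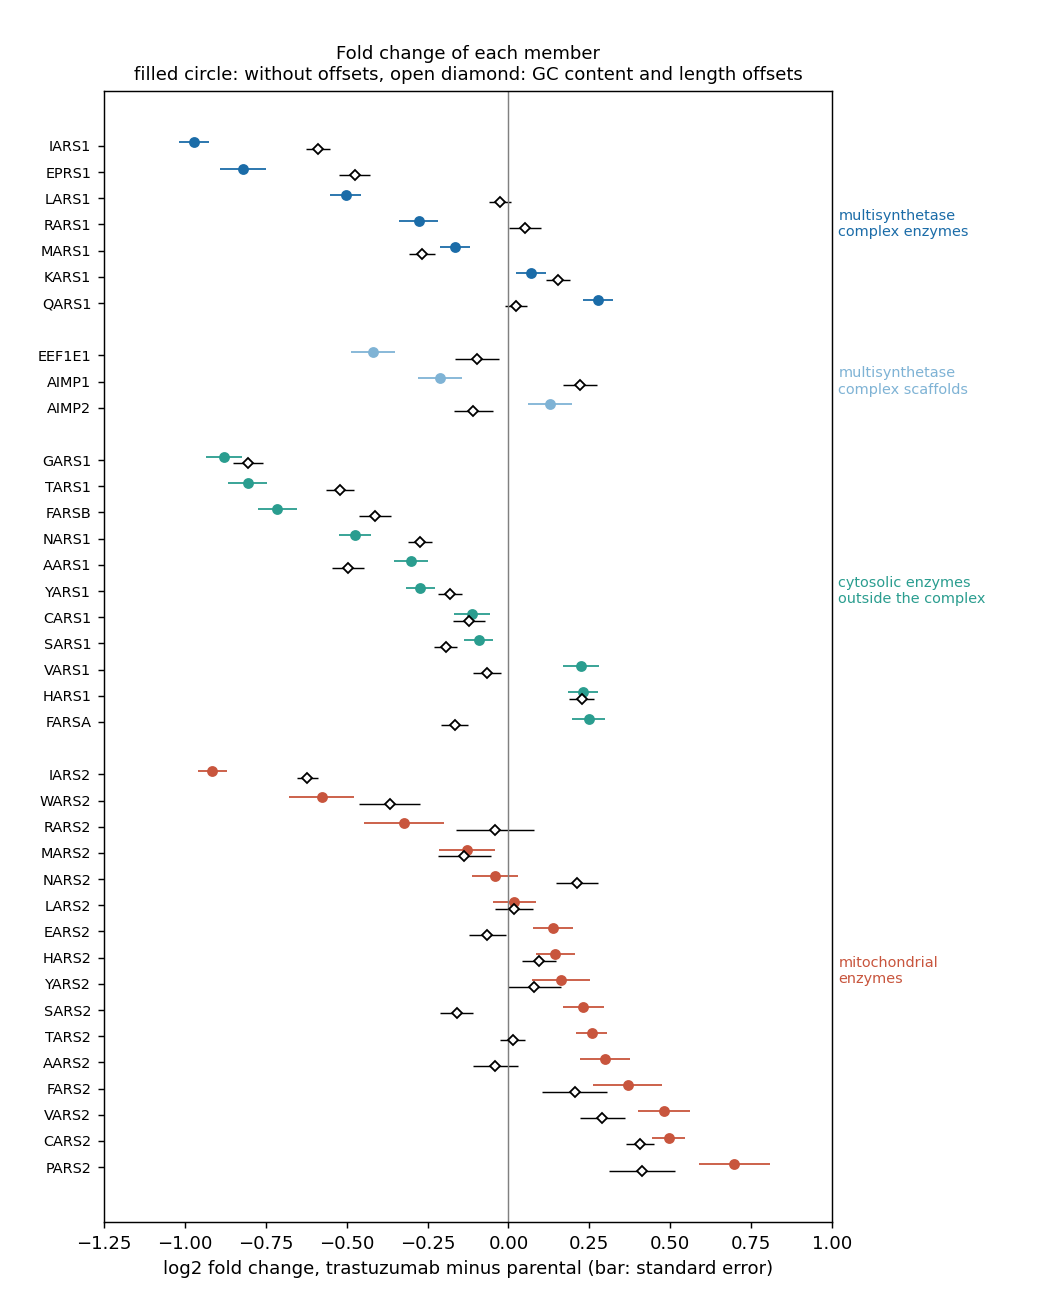
Each row is a member, with its log2 fold change (trastuzumab minus parental) as a filled circle and that of the offset fit as an open diamond, and bars give the standard error. In both fits GARS1, IARS1, TARS1, EPRS1 and IARS2 lie at -0.47 or lower. The diamonds of 9 members lie on the other side of 0 from their circles. FARSA, VARS1, AARS2, SARS2, AIMP2 and EARS2 move to below 0, and RARS1, AIMP1 and NARS2 to above 0.

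The mitochondrial enzymes began with the abundant IARS2, the mitochondrial isoleucyl-tRNA synthetase (chr1:220094102-220148041, plus strand). It had 343.1, 330.9 and 325.8 CPM in parental and 179.6, 169.9 and 180.5 CPM in trastuzumab libraries. It fell 1.89-fold, with a log2 fold change of -0.92 ± 0.045 (SE, adjusted p = 1.70e-10) and -0.62 with offsets. WARS2, the mitochondrial tryptophanyl enzyme (chr1:119031216-119140671, minus strand), fell from 16.8, 14.5 and 16.6 CPM to 11.1, 10.6 and 10.5 CPM, a log2 fold change of -0.58 ± 0.10 (SE, adjusted p = 1.39e-04) and -0.37 with offsets. Both genes are below 45% GC and were lower in both fits.

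PARS2, the mitochondrial prolyl enzyme (chr1:54756898-54764514, minus strand), showed the largest rise of any member on the log2 scale. It had 8.57, 9.45 and 8.12 CPM in parental and 13.2, 15.1 and 14.1 CPM in trastuzumab libraries, a log2 fold change of 0.70 ± 0.11 (SE, adjusted p = 5.06e-05) and 0.41 with offsets. CARS2, the mitochondrial cysteinyl enzyme (chr13:110641412-110713603, minus strand), rose from 72.1, 70.6 and 73.3 CPM to 99.0, 106.3 and 99.3 CPM, a log2 fold change of 0.50 ± 0.051 (SE, adjusted p = 5.50e-07) and 0.41 with offsets. CARS2 was thus little altered by the offsets at 55.8% GC.

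VARS2, the mitochondrial valyl enzyme (chr6:30908242-30926459, plus strand), had 63.9, 67.1 and 81.9 CPM in parental and 101.3, 100.1 and 95.4 CPM in trastuzumab libraries. Parental replicate 3 was the highest of its group but stayed below all trastuzumab libraries, and the log2 fold change was 0.48 ± 0.080 (SE, adjusted p = 2.85e-04), with 0.29 in the offset fit. VARS2 shares 1858 exonic bases with GTF2H4 on the same strand, so its level is uncertain. TARS2, the mitochondrial threonyl enzyme (chr1:150487364-150507609, plus strand), rose from 88.3, 86.2 and 90.8 CPM to 106.7, 106.0 and 104.3 CPM, a log2 fold change of 0.26 ± 0.048 (SE, adjusted p = 2.60e-04) that was 0.013 with offsets.

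Of the 10 other mitochondrial enzymes, FARS2 (0.37), AARS2 (0.30) and SARS2 (0.23) rose, and none of the 3 was higher in the offset fit (0.20, -0.040 and -0.16). SARS2 shares 1492 exonic bases with a read-through gene on the same strand. RARS2, the mitochondrial arginyl enzyme, fell by 0.32 on the log2 scale, but the call did not hold when any of 4 libraries was left out. The adjusted p rose to 0.145 and 0.0615 when parental replicate 2 or 3 was left out, and to 0.0861 and 0.172 when this was done with trastuzumab replicate 2 or 3. With upper-quartile scaling it was 0.0817. YARS2 (0.16), HARS2 (0.14), EARS2 (0.14), LARS2 (0.018), NARS2 (-0.041) and MARS2 (-0.13) did not pass the test. Of these, NARS2 was higher in the offset fit (0.21, adjusted p = 0.0169), EARS2 passed without trastuzumab replicate 3 (adjusted p = 0.0486), with upper-quartile factors (0.0170) and with a filter of 1 CPM in each group (0.0386). HARS2 passed without parental replicate 3 (adjusted p = 0.0275) or trastuzumab replicate 1 (0.0234), and also with RLE factors (0.0441), upper-quartile factors (0.0108), the 1 CPM filter (0.0230) and DESeq2 (0.0408).

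Levels between genes were compared on the FPKM scale, which corrects for length. In parental cells IARS2 had the highest level of the 37 members, 72.7 ± 2.55 FPKM, followed by QARS1 with 56.7 ± 2.14 FPKM (SD, n = 3 in each group). In trastuzumab cells IARS2 had 36.7 ± 1.27 FPKM and stood at place 4, and QARS1 stood first with 65.6 ± 1.42 FPKM, ahead of VARS1 (41.0 ± 0.756) and FARSA (37.05 ± 0.756). IARS2 and FARSA, the neighbours at that place in the order, did not differ beyond their spread. GARS1 went from place 20 to 30 and EPRS1 from 7 to 12. The lowest levels in parental cells were those of FARS2 (1.97 ± 0.156), LARS2 (3.0 ± 0.12) and RARS2 (3.19 ± 0.236 FPKM), and the last 2 lay within each other's spread. The median level was 19.5 FPKM for cytosolic members and 8.13 FPKM for mitochondrial enzymes in parental cells, and 13.9 and 8.17 FPKM in trastuzumab cells.

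Summed over the 21 cytosolic members, the level was 484.0, 469.7 and 474.9 FPKM in parental and 413.5, 399.3 and 404.5 FPKM in trastuzumab libraries. The sum of the 16 mitochondrial enzymes also was lower, 196.9, 190.4 and 194.9 FPKM against 169.8, 169.7 and 166.8 FPKM, although more of its genes rose than fell. IARS2 makes up the largest share of that sum, and its own drop from 72.7 to 36.7 FPKM exceeds the drop of the sum from 194.1 to 168.8 FPKM. In CPM, which use TMM-scaled totals, the mean sum went from 942.6 to 889.9 for mitochondrial enzymes and from 3049.7 to 2598.6 for cytosolic members. The FPKM scale itself sat lower in trastuzumab libraries: the median of all genes on log2(FPKM + 1) was -0.053, against -0.0057 in the main fit.

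Genes for the same amino acid were set side by side in 16 pairs over 15 amino acids, with EPRS1 paired with both EARS2 and PARS2, and FARS2 with both FARSA and FARSB. The log2 fold change of the cytosolic gene was below that of its mitochondrial partner in 14 of 16 pairs, and in 13 with offsets. Among the 13, the offsets shrank the difference of leucine from -0.52 to -0.045 and that of serine from -0.32 to -0.033. Those of asparagine, valine, methionine and phenylalanine with the alpha subunit grew (to -0.49, -0.36, -0.13 and -0.37). The median difference was -0.43, and -0.36 with offsets. The pairs share EPRS1 and FARS2, and their differences were not tested. On the FPKM scale, every trastuzumab ratio of cytosolic to mitochondrial gene lay below every parental ratio in 12 pairs, in isoleucine by a hair (0.37707 against 0.37734), and the ratios of 4 pairs overlapped. These ratios carry no offsets, and the share of other gene pairs without overlap was not computed. Of single genes of at least 10 CPM, 77.6% had groups without overlap.

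The widest differences were those of proline (EPRS1 minus PARS2, -1.52), phenylalanine with the beta subunit (FARSB minus FARS2, -1.08), threonine (TARS1 minus TARS2, -1.06) and glutamate (EPRS1 minus EARS2, -0.96). The offsets shrank these, in the same order, to -0.89, -0.62, -0.53 and -0.41. In the offset fit cysteine (-0.53), asparagine (-0.49) and alanine (-0.46) had wider differences than glutamate. For threonine the FPKM ratio of TARS1 to TARS2 was 1.63, 1.46 and 1.34 in parental and 0.719, 0.689 and 0.714 in trastuzumab libraries, so the order of both genes turned. For cysteine the ratio of CARS1 to CARS2 was 0.986, 0.982 and 0.909 in parental and 0.613, 0.606 and 0.665 in trastuzumab libraries. In the isoleucine pair IARS1 and IARS2 both fell, their difference was -0.056, and the ratio was 0.377, 0.380 and 0.389 in parental and 0.377, 0.372 and 0.352 in trastuzumab libraries. Only histidine (0.088) and arginine (0.047) had the cytosolic gene above the mitochondrial one, and methionine (-0.035) was close to 0. Both arginine genes fell (RARS1 -0.28, RARS2 -0.32), and both valine genes rose (VARS1 0.22, VARS2 0.48), as did FARSA (0.25) and FARS2 (0.37), but RARS1, VARS1 and FARSA changed sign in the offset fit (0.052, -0.066 and -0.17).

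**Figure D4:**
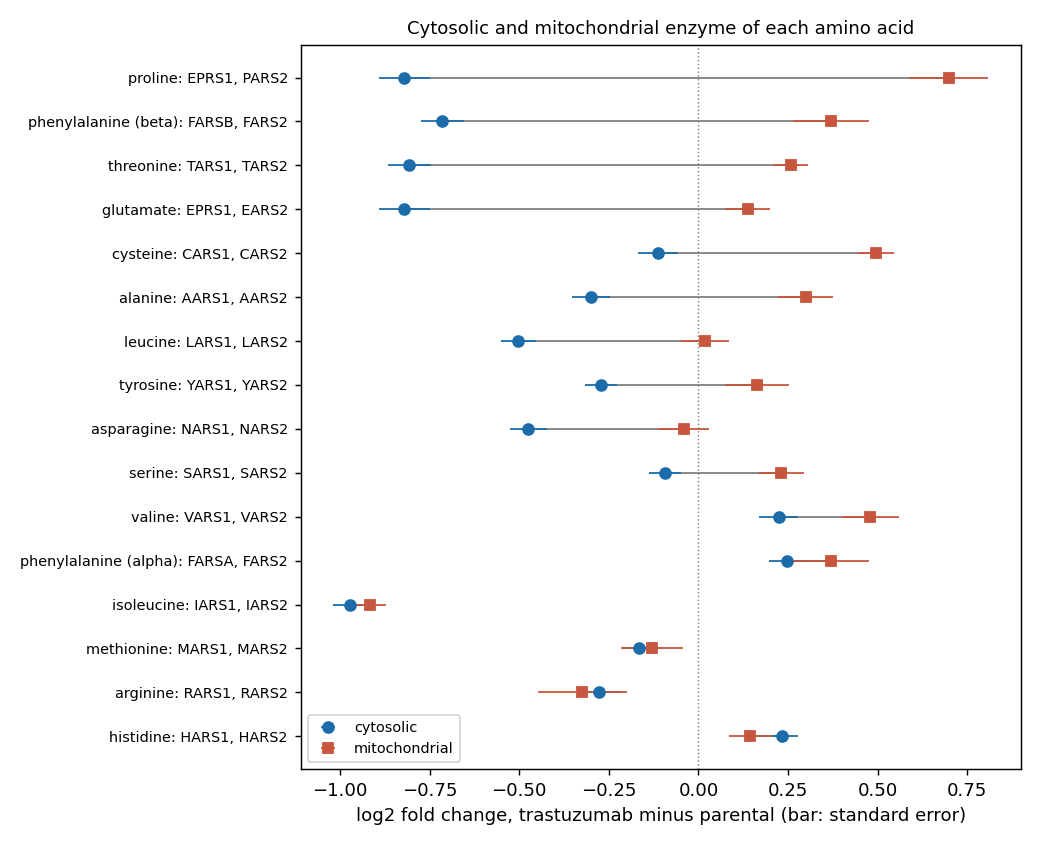
Each row is an amino acid, with the log2 fold change (trastuzumab minus parental) of its cytosolic gene as a blue circle and that of its mitochondrial gene as a red square, joined by a line, and bars give the standard error. The circle lies left of the square in 14 of 16 rows, by 1.52 for proline, and isoleucine is the row with both symbols near -0.92 to -0.97.

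The promoters were searched because many cytosolic synthetase genes carry a C/EBP-ATF response element, the composite site that ATF4 binds with C/EBP proteins. The motif TGATGNAA was sought on both strands in 300 bases around each start (250 before, 50 after) in RefSeq promoters of GRCh38.p14. It was present in 3.63% of 34796 promoters and 1.68% of 11687 promoters of tested genes. Of 32 members in the table, 6 of 18 cytosolic (33.3%) and 1 of 14 mitochondrial promoters (7.14%) held it. The 6 cytosolic sites all read TGATGCAA. They are printed below with 11 bases on each side, on the strand that carries the motif (capitals), to show that the core is shared while the flanks differ.
IARS1 chr9:92293692-92293721, plus strand: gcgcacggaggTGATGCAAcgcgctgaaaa
MARS1 chr12:57488053-57488082, minus strand: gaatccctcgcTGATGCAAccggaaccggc
AARS1 chr16:70289675-70289704, plus strand: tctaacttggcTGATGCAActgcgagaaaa
CARS1 chr11:3057407-3057436, plus strand: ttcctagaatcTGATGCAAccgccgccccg
NARS1 chr18:57621804-57621833, minus strand: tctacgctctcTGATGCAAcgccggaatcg
TARS1 chr5:33440956-33440985, minus strand: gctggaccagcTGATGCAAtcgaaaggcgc
YARS2 chr12:32756076-32756105, minus strand: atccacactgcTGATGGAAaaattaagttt

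In 4 of these 7 the left end of the motif, on the gene's strand, lies within 13 bases of the annotated start. It lies 13 before the start in IARS1, 4 before in MARS1, 2 before in CARS1 and 2 after in TARS1. In NARS1 it lies 14 after. The motifs of MARS1 and CARS1 thus run across the start. Of the 6 cytosolic genes with the motif, 5 fell (IARS1, TARS1, NARS1, AARS1 and MARS1), CARS1 did not pass, and none rose. Among all genes of at least 10 CPM, 36.99% fell and 35.8% rose. The median log2 fold change of the 6 genes was -0.39 in both fits. The table holds 12 cytosolic members without it, of which 6 fell and 3 rose. Their median was -0.15, and -0.10 with offsets. These include GARS1 (-0.88) and EPRS1 (-0.82). LARS1 and YARS1, which fell, and VARS1, which rose, have no promoter entry and count on neither side. Whether the fall goes with the motif was not tested. YARS2, the one mitochondrial gene with the motif, did not pass. A match describes letters in this window and is neither a bound site nor a cause.

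IARS1 and IARS2 fell alike, one with the motif and one without, and the 250 bases before their starts are shown to compare both promoters, each on its gene's own strand. In IARS1 the capitals mark the motif, read here from the opposite strand. The IARS2 stretch opens with a run of a and t bases and holds no match.
IARS1 chr9:92293698-92293947, minus strand: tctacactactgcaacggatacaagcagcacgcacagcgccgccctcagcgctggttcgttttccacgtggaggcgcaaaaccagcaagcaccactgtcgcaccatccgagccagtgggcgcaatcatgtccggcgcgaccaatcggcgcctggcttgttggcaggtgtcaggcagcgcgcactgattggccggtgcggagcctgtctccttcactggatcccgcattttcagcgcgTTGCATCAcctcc
IARS2 chr1:220093882-220094131, plus strand: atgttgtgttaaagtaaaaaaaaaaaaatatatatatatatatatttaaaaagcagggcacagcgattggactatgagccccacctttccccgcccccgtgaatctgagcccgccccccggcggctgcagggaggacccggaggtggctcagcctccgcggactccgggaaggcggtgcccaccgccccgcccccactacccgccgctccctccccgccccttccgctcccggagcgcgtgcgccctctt

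HARS1 and HARS2 (0.23 and 0.14, the second not past the test) are transcribed away from each other. Between their RefSeq starts lie 84 bases, chr5:140691371-140691454, printed on the plus strand because the whole shared stretch is this short.
HARS1/HARS2: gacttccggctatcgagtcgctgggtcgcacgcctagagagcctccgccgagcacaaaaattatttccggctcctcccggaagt
The annotated transcripts of both genes also share 437 exonic bases on opposite strands, so part of the counts of either gene could come from the other.

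The transcription factor and its pathway were listed separately. As background for the pathway lists here and below, the test called 49.3% of all tested genes and 72.8% of those of at least 10 CPM. The offset fit called 37.9% of its genes. ATF4 itself, named here after its values were seen, had 349.8, 341.8 and 343.5 CPM in parental and 250.2, 258.3 and 257.5 CPM in trastuzumab libraries. The groups lay apart, with a log2 fold change of -0.43 ± 0.041 (SE, adjusted p = 2.34e-07), and -0.75 with offsets. ATF4 is controlled largely in its translation, so its RNA does not measure its activity. The list of 35 ATF4 and amino acid response genes as a whole was divided, 16 higher, 13 lower and 6 not past, with a median of 0.12 (10, 14 and 11, with a median of -0.066, in the offset fit). GDF15, a stress-induced secreted factor, rose from 1.85 ± 0.227 to 10.04 ± 0.216 CPM, the cystine transporter SLC7A11 fell from 10.8 ± 1.34 to 2.89 ± 0.25 CPM, and the secreted glycoprotein STC2 from 5.28 ± 1.26 to 2.21 ± 0.106 CPM (SD, n = 3). Of 11 genes of GCN2 sensing and eIF2, 3 rose and 4 fell, among them EIF2B5, a subunit of the exchange factor of eIF2 (0.49), EIF2S2, the eIF2 beta subunit (-0.61), and the GCN2 inhibitor IMPACT (-0.28, not past with offsets). In the offset fit 5 of the 11 were higher and 2 lower, and the median went from -0.063 to 0.12.

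Other genes along the path of tRNA were counted next. Of 7 cytosolic elongation factor genes 5 rose and none fell, where 35.8% of genes of at least 10 CPM rose and 36.99% fell. EEF1B2 (0.72), EEF1G (0.56) and EEF1D (0.55), subunits of the exchange factor that recycles eEF1A, rose in both fits. The elongation factor list had a median GC content of 56.1%, and the GC class of 52.8% to 58.7% had a median log2 fold change of 0.24. EEF1A1, which carries charged tRNA to the ribosome, did not pass (-0.036), and in the offset fit the list had 4 higher and 2 lower. Of 6 genes of tRNA export, editing and selenocysteine, 1 rose and 3 fell, with a median of -0.12. In the offset fit 1 was higher and 1 lower, with a median of 0.087. XPOT, the exporter of tRNA from the nucleus, went from 141.1 ± 8.34 to 83.8 ± 4.53 CPM (SD, n = 3), a log2 fold change of -0.75 (-0.28 with offsets), SEPSECS, which makes selenocysteinyl-tRNA, had -0.82 and the editing protein AARSD1 0.36, both not past with offsets.

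Of 20 genes of RNA polymerase III and its factors, which transcribe tRNA genes, 9 rose and 7 fell, with a median of 0.12. In the offset fit 5 were higher and 4 lower, with a median of 0.034. The highest log2 fold change of the list was 0.55. POLR3G (-0.99), the TFIIIB subunit BDP1 (-0.92) and the TFIIIC subunit GTF3C3 (-0.64) had the largest differences, and the first 2 were also lower with offsets. On the mitochondrial side, 4 of 15 genes of tRNA maturation rose and 4 fell, with MTO1 (-0.69), TRMT5 (-0.47) and TRNT1 (-0.42), which modify or complete tRNA, all not past with offsets. Of 10 mitochondrial translation factors 2 rose and 4 fell, among them the recycling factor MRRF (-0.57, -0.19 with offsets), the elongation factor GFM1 (-0.50, 0.020) and the release factor MTRF1L (-0.40, -0.048). The medians of these 2 mitochondrial lists were -0.076 and -0.26, and 0.022 and -0.022 with offsets. In the offset fit the tRNA maturation list had 1 higher and 2 lower, and the translation factors 1 higher and 1 lower.

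When trastuzumab replicates 2 and 3, which held the basal keratin counts, were both left out, replicate 1 alone against the parental libraries gave 9 cytosolic members lower and 3 higher, and 4 mitochondrial enzymes higher and 2 lower. The medians were then -0.20 and 0.19. No member changed sign in that fit, which calls 5926 genes in all and assumes that the lone library varies like the parental ones.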

How the data were processed

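RNA levels were measured in 3 parental and 3 trastuzumab libraries, grouped by their labels. Per the labels' protocols, 1 µg of total RNA from RNeasy columns went into each directional NEBNext Ultra II library. The authors deposited whole-number counts per gene for each library, and FPKM values scaled by length and library size. The submitters' processing notes name STAR 2.4.2a and hg38. For the counting program, annotation and strand setting the entry is: not given in the sources used here. No column was left unused (0).

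The robust quasi-likelihood test of edgeR 4.0.16 (R 4.3.3) was run on these counts, after TMM scaling and the filterByExpr filter and with no covariate, with Benjamini-Hochberg adjustment over all tested genes and calls at an adjusted p below 0.05. CPM use TMM-scaled totals, and 3 counts are worth 0.0372 to 0.0428 CPM. The offset fit removes from each library a spline (5 degrees of freedom) on GC content and exonic length from GENCODE 29, which placed 58394 identifiers. Symbols came from a gene name reference (60401 identifiers matched).

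Members and lists were chosen with earlier results of these data known, so the lists were described and not tested. Full values are given for members with a log2 fold change of at least 0.5 in size or an adjusted p below 0.001, up to 6 per role group, and for up to 3 called genes per pathway list with the largest change. Alternatives were other scaling, other filters, DESeq2 1.42.0, limma-voom and limma 3.58.1 on log2(FPKM + 1) and log2(FPKM + 0.1), the replicate number as a block, an adjusted p below 0.01, and leaving out each library; leaving out trastuzumab replicates 2 and 3 together was added after seeing the data. The scripts were tested on simulated data.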

Additional observations from a re-analysis of the deposited data

How the results depend on the processing

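Between 7091 and 8986 genes were called under every alternative but the offset fit (6684), the offset fit with the replicate block (6338) and trastuzumab replicate 1 alone (5926), and from 7882 to 8689 when 1 library was left out. Members called higher moved from 4 to 2 cytosolic genes and from 7 to 4 mitochondrial enzymes with limma on log2(FPKM + 1) without a filter. Mitochondrial enzymes called higher also numbered 4 in the offset fit with or without the block and with trastuzumab replicate 1 alone, and 7 to 8 with 1 library left out. Each alternative kept the cytosolic members called lower between 9 and 15. The median of the cytosolic members was -0.22 with upper-quartile factors, -0.33 with library totals alone, -0.34 on log2(FPKM + 0.1), -0.17 in the offset fit with or without the block, -0.20 with trastuzumab replicate 1 alone, and -0.29 to -0.23 with 1 library left out. That of the mitochondrial enzymes was 0.21 with upper-quartile factors, 0.099 with library totals alone, 0.075 on log2(FPKM + 1) with and without a filter, 0.081 on log2(FPKM + 0.1), 0.015 in the offset fit with or without the block, and 0.16 to 0.20 with 1 library left out, highest without trastuzumab replicate 3. The cause of these shifts was not tested.

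Changes of sign were as follows. In the offset fit, and again with the block added, RARS1 had 0.052 and 0.053, AIMP1 0.22 in both, AIMP2 -0.11 in both, FARSA -0.17 in both, VARS1 -0.066 and -0.065, AARS2 -0.040 and -0.037, EARS2 -0.065 in both, NARS2 0.21 in both and SARS2 -0.16 in both. KARS1 had -0.00059 on log2(FPKM + 1), with and without a filter, and -0.00060 on log2(FPKM + 0.1). LARS2 had -0.036 with library totals alone and on log2(FPKM + 1) with and without a filter, -0.047 on log2(FPKM + 0.1), and -0.015 (without parental replicate 1) to 0.055 (without parental replicate 3) with 1 library left out. NARS2 had 0.012 with upper-quartile factors. With trastuzumab replicate 1 alone 9 members lost their call: MARS1, RARS1, AIMP1, AARS1, HARS1, AARS2, FARS2, RARS2 and SARS2.

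The replicate numbers showed no consistent pairing of the libraries: deviations of same-numbered libraries correlated at 0.24, -0.017 and 0.031. Those of differently numbered libraries correlated at -0.25 (parental 3 with trastuzumab 1) to 0.23 (parental 3 with trastuzumab 2). With the replicate block 8653 genes were called, and no member changed its call. Direction and call were kept for 37 members with limma-voom and without the low-count filter, 36 with DESeq2 and with RLE factors, 35 or 36 with 1 library left out, 29 with upper-quartile factors and 20 in the offset fit. With at least 591 counts per library for each member, the spread between 3 libraries a group limits precision more than depth does.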

Other observations

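EPRS1 and IARS2, which fell by 0.82 and 0.92 on the log2 scale, lie near each other on chromosome 1 (chr1:219968601-220046658 and chr1:220094102-220148041, hg38), with 47444 bases between their starts. They were looked at together after their values were seen. BPNT1, a nucleotidase gene that lies between them, rose (0.27, from 96.8 to 116.9 CPM), and RAB3GAP2, whose 3' end lies next to that of IARS2 on the other strand, fell by 0.74 (from 45.3 to 27.1 CPM). In the offset fit the 4 genes had -0.47 (EPRS1), 0.50 (BPNT1), -0.62 (IARS2) and -0.24 (RAB3GAP2). MARK1, farther out, did not pass (0.10, adjusted p = 0.597).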
